A study of Xenopus laevis with 12 samples.

Results

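Microtubules are built from heterodimers of alpha and beta tubulin, and vertebrate genomes carry several genes, called isotypes, for each. The report covers 7 of them in retinal ganglion cells of the frog *Xenopus laevis* after the optic nerve was crushed: the beta tubulins tubb6.L, tubb3.S, tubb2b.S and tubb4a.1, and the alpha tubulins tuba1b.S, tuba3c.L and tuba3c.S. They were chosen by their gene symbol, with earlier results of these data known. They are 7 of 25 gene models with an alpha or beta tubulin symbol, among 45099 models in all. The other 18 were measured as the surroundings of the 7.

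*Xenopus laevis* is allotetraploid, so most genes have a copy on a long (.L) and on a short (.S) chromosome, called homeologs. In mammals, tubb3 marks neurons, tubb2b is prominent in growing neurons, tubb4a and tuba4a are prominent in the adult brain, tuba1b is expressed in nearly every tissue, and tubb6 is mainly known from non-neuronal cells. Human TUBA3C is best known from testis. Regrowing axons need new tubulin, which is made in the cell body, folded by the chaperonin TRiC with prefoldin and tubulin cofactors, and carried into the axon. Unlike mammals, frogs can regrow a crushed optic nerve.

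All frogs carried the transgene tg(islet2b:EGFP-RPL10a), in which the islet2b promoter drives a ribosomal protein fused to green fluorescent protein, and were F1 offspring of single female founders grown past metamorphosis. Ribosomes with their RNA were pulled down from retinas without lens or pigment epithelium with antibodies to the fluorescent protein (TRAP, translating ribosome affinity purification). Operated frogs had tricaine anaesthesia, and the libraries came from the right eye with its nerve crushed and from the unoperated left eye (contralateral) at days 1, 3, 7 and 11, the right and left eyes of sham-operated frogs at day 1, and unoperated (naive) frogs, plus 1 library of total retina RNA. The right eye is the crushed one in the labels, which were followed; the series' design text has 1 sentence that gives the left. Each TRAP library pooled RNA of 3 independent biological replicates, so every condition was 1 library. The 4 contralateral, 2 sham and 1 naive libraries are called the 7 uninjured TRAP libraries below. In fits of a lone library against these 7, p-values rest on the spread among the 7 pools. In fits of the 4 pairs of eyes, they rest on how the eye difference varied between days.

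Library totals were 16820571 to 63299998 expected counts, which are read counts estimated per gene model. The 25 measured models of ganglion cell markers (pou4f, rbpms, neurofilament and others) checked the label. Of 23 tested, 20 were higher and 2 lower in uninjured TRAP RNA than in total retina RNA, while all 25 photoreceptor models were lower (23.3% of all models were higher and 18.7% lower). Ganglion cell markers summed to 9626, 5773, 2509 and 3530 CPM (counts scaled to equal library size) in the crushed eye at days 1, 3, 7 and 11, against 9854 to 10540 CPM in the 7 uninjured libraries. These data are bulk measurements, in which fewer cells of a type and less RNA per cell cannot be told apart. TRAP recovers RNA on tagged ribosomes, and transcription, transport and ribosome loading cannot be told apart either.

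In TRAP RNA of the crushed eye the make-up of tubulin message differed from that of uninjured eyes from day 3 on. By day 11, 6 of the 7 isotypes were higher than in uninjured TRAP RNA, led by tubb6.L, the least abundant of them, and followed by tuba3c.S, tubb3.S and tuba1b.S. The most abundant of the 7 in uninjured TRAP RNA, tubb4a.1, was lower from day 3 on. None of the 7 passed the test at day 1.

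**Figure D1:**
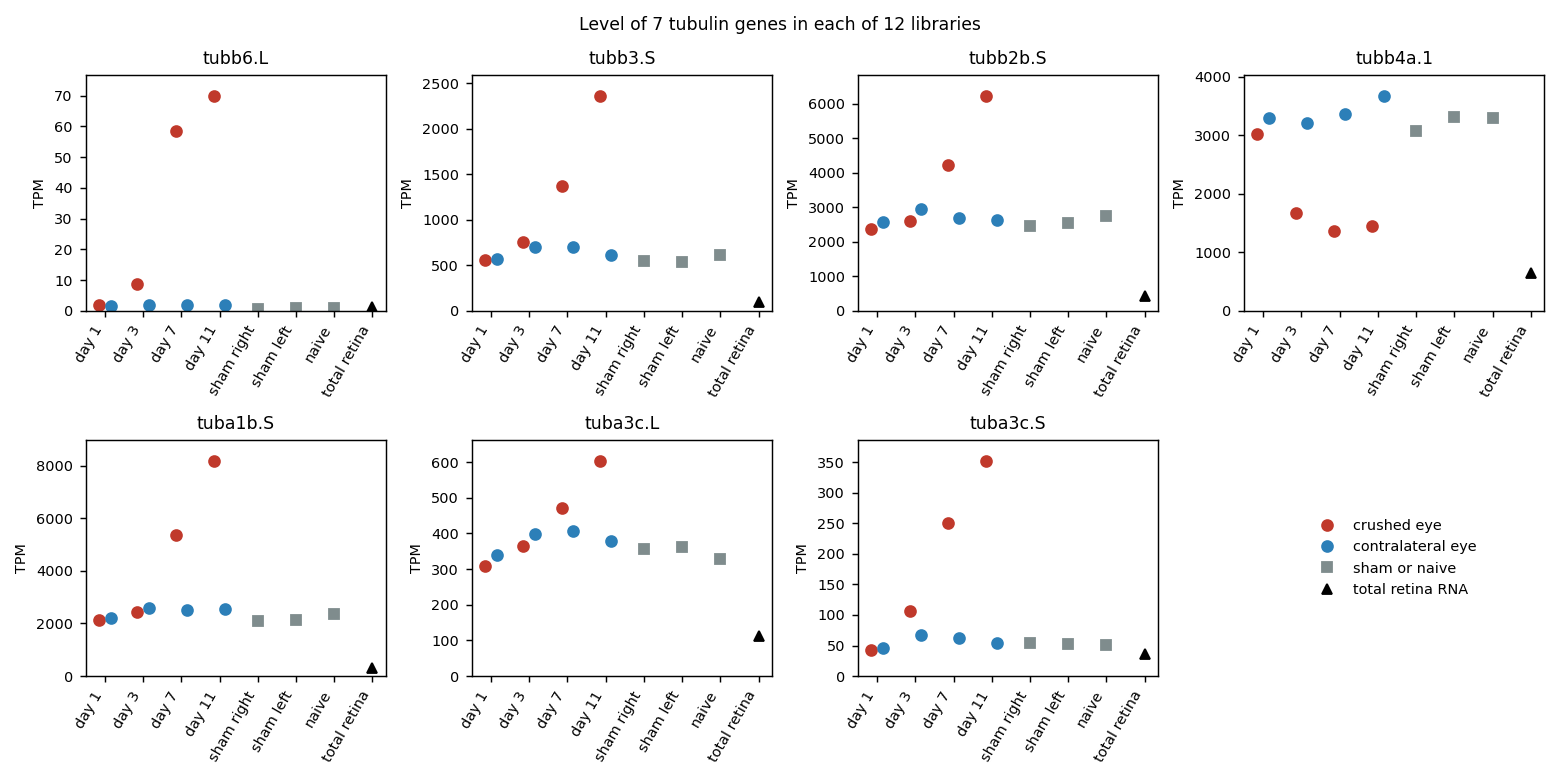
Level of the 7 tubulin genes in TPM (vertical axes, linear, from 0) in each of 12 libraries, 1 point a library: crushed eye (red) left of contralateral eye (blue) at each day, then sham and naive TRAP (grey squares) and total retina RNA (black triangle). At days 7 and 11 the crushed eye lies above every uninjured TRAP library in 6 panels and below them in the tubb4a.1 panel.

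Among the beta tubulins, tubb6.L had 1.90, 8.55, 58.5 and 69.9 TPM (a transcript abundance per length, as a share of the library) in the crushed eye at days 1, 3, 7 and 11, against a lowest, median and highest value of 0.62, 1.47 and 2.02 TPM in the 7 uninjured TRAP libraries. The crushed eye was inside the uninjured range at day 1 and above it at the other days. Behind these levels stood 79, 161, 3540 and 3205 counts in the crushed eye, against 9 to 69 in the uninjured libraries. Total retina RNA held 25 counts of tubb6.L. In the fit of each crush library against the 7 uninjured ones, the log2 fold of tubb6.L was 2.72 ± 0.36 (SE) at day 3 (adjusted p = 3.01e-05, edgeR), 5.88 ± 0.28 at day 7 (adjusted p = 3.30e-11, edgeR) and 6.26 ± 0.28 at day 11 (adjusted p = 1.33e-11, edgeR). The 4 contralateral eyes had 1.47, 2.02, 1.87 and 1.75 TPM of tubb6.L, above the 0.62 and 0.81 TPM of the sham right and left eyes and the 0.81 TPM of the naive library, a difference between small counts that was not tested.

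The neuronal beta tubulin tubb3.S had 556, 758, 1372 and 2358 TPM in the crushed eye at days 1, 3, 7 and 11, against 536, 616 and 703 TPM (lowest, median, highest) in the uninjured libraries. It lay inside the uninjured range at day 1 and above it from day 3. Its log2 fold was 0.34 ± 0.12 at day 3 (adjusted p = 0.0431, edgeR), 1.58 ± 0.10 at day 7 (adjusted p = 8.78e-10, edgeR) and 2.49 ± 0.10 at day 11 (adjusted p = 8.44e-13, edgeR). The day 3 call was lost without the naive, the sham right, or the day 1 or day 11 contralateral library (adjusted p = 0.0651, 0.0509, 0.0634 and 0.0635, edgeR), without both sham libraries (adjusted p = 0.0622, edgeR), against the 4 contralateral libraries alone (adjusted p = 0.115, edgeR), and with scaling by total counts (adjusted p = 0.0920, edgeR).

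The second neuronal beta tubulin, tubb2b.S, had 2370, 2613, 4223 and 6232 TPM in the crushed eye, against 2466, 2640 and 2964 TPM (lowest, median, highest) in the uninjured libraries. The crushed eye was below the uninjured range at day 1, inside it at day 3 and above it at days 7 and 11. The log2 fold was 1.08 ± 0.07 at day 7 (adjusted p = 8.30e-11, edgeR) and 1.77 ± 0.07 at day 11 (adjusted p = 1.88e-14, edgeR). At day 3 it was 0.00 ± 0.08 (adjusted p = 0.985, edgeR).

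The remaining beta tubulin, tubb4a.1, went the other way. It had 3028, 1674, 1367 and 1455 TPM in the crushed eye at days 1, 3, 7 and 11, against 3079, 3292 and 3671 TPM (lowest, median, highest) in the uninjured libraries. All 4 crushed eyes were below the uninjured range, that of day 1 by little. The log2 fold was -0.96 ± 0.08 at day 3 (adjusted p = 1.54e-08, edgeR), -0.87 ± 0.08 at day 7 (adjusted p = 1.01e-08, edgeR) and -0.65 ± 0.08 at day 11 (adjusted p = 5.06e-07, edgeR). Scaled by total counts in place of TMM, it was -1.01, -1.10 and -0.96, with less difference between the days.

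Among the alpha tubulins, tuba1b.S had 2133, 2454, 5357 and 8170 TPM in the crushed eye, against 2095, 2359 and 2572 TPM (lowest, median, highest) in the uninjured libraries. It was inside the uninjured range at days 1 and 3 and above it at days 7 and 11. The log2 fold was 0.09 ± 0.09 at day 3 (adjusted p = 0.514, edgeR), 1.60 ± 0.08 at day 7 (adjusted p = 8.76e-13, edgeR) and 2.34 ± 0.07 at day 11 (adjusted p = 1.21e-15, edgeR). With 8170 TPM it was the most abundant of the 7 in the crushed eye at day 11.

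Of the tuba3c pair, tuba3c.S had 43.4, 107, 250.5 and 352 TPM in the crushed eye at days 1, 3, 7 and 11, against 45.8, 53.5 and 67.6 TPM (lowest, median, highest) in the uninjured libraries. It was just below that range at day 1 and above it afterwards. Its log2 fold was 0.98 ± 0.14 at day 3 (adjusted p = 3.48e-05, edgeR), 2.59 ± 0.12 at day 7 (adjusted p = 1.79e-12, edgeR) and 3.21 ± 0.12 at day 11 (adjusted p = 4.27e-14, edgeR). Its homeolog by name, tuba3c.L, had 307, 364, 470 and 602 TPM in the crushed eye, against 327, 361 and 406 TPM (lowest, median, highest) in the uninjured libraries. It was below the uninjured range at day 1, inside it at day 3 and above it at days 7 and 11. The log2 fold of tuba3c.L was 0.02 ± 0.11 at day 3 (adjusted p = 0.941, edgeR), 0.77 ± 0.10 at day 7 (adjusted p = 3.42e-06, edgeR) and 1.25 ± 0.10 at day 11 (adjusted p = 1.62e-09, edgeR).

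**Figure D2:**
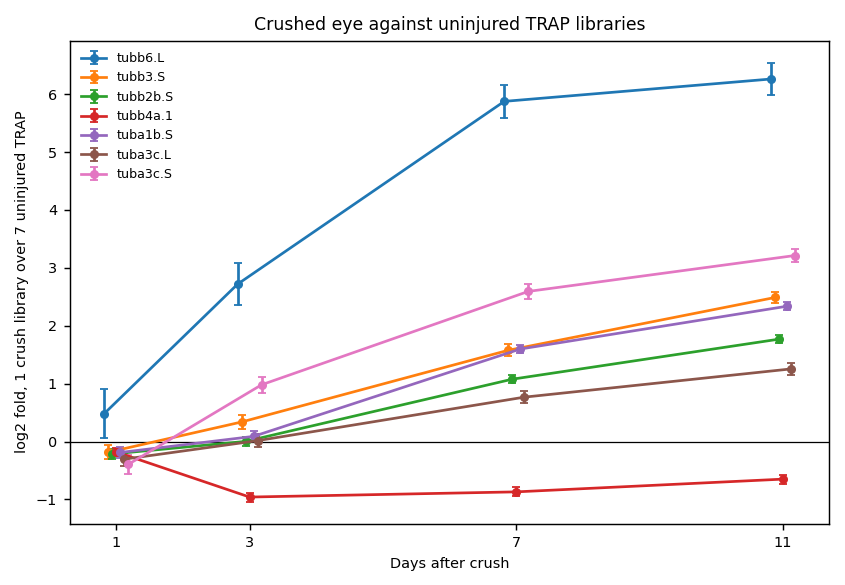
Log2 fold of 1 crush library over the 7 uninjured TRAP libraries (vertical axis) by days after crush (horizontal axis), with 1 line per tubulin gene and bars of 1 standard error from the edgeR fit. The line of tubb6.L reaches 6.26 at day 11, 5 other lines end between 1.25 and 3.21, and the line of tubb4a.1 stays below 0.

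Counted by day, 0 of the 7 isotypes passed an adjusted p of 0.05 at day 1 in edgeR, where 0.0259% of all 26978 models tested did. Their day 1 log2 folds were -0.39 to -0.18, apart from 0.48 ± 0.42 for tubb6.L. At an unadjusted p under 0.05 were 5 of the 7, beside 1056 of the 26978 models tested. No other tool was run on this contrast. At day 3, 4 isotypes passed, against 23.1% of all models, with 3 higher and 1 lower (11.9% and 11.2% of all models). At day 7 all 7 passed, against 42.9% of all models, with 6 higher and 1 lower (21.6% and 21.4%). Day 11 gave 7 of 7, against 45% of all models, again with 6 higher and 1 lower (21.4% and 23.6%). The 4 contrasts share the 7 uninjured libraries, and each rests on 1 crush library that is assumed to vary like the others. Because the 7 isotypes were chosen with earlier results of these data known, these counts and those below describe them. They do not test the 7 as a set. The median log2 fold of the 7 was -0.19, 0.09, 1.58 and 2.34 at days 1, 3, 7 and 11, beside -0.01, -0.06, -0.08 and -0.12 over all models. Scaling by total counts moved the median of all models by -0.23 at day 7 and -0.31 at day 11 and the split of calls to 4379 higher and 7319 lower at day 7, and 4032 higher and 8544 lower at day 11, but changed no call of the 7 at those days.

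Within frogs, the crushed eye was set against the contralateral eye of the same day. The log2 ratio at days 1, 3, 7 and 11 was 0.32, 2.09, 5.31 and 5.86 for tubb6.L, the widest range of the 7. For tubb4a.1 it was -0.15, -0.90, -0.91 and -0.75. The other 5 isotypes lay between -0.18 and -0.07 at day 1 and between 1.25 and 3.29 at day 11. The right over left ratio of the sham-operated frogs, with no crush in either eye, was -0.11 to 0.02 on the log2 scale for 6 isotypes and -0.36 for tubb6.L.

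How far the crush effect changed with day was tested in a fit of the 8 crush and contralateral libraries, with day as a block and the interaction of eye and log2 day. It has 2 residual degrees of freedom, and departures from a straight line in log2 day count as error. Of the 7 isotypes, 5 rose with day in the crushed eye relative to the contralateral eye and 0 fell, where 12.7% of all 26005 models tested passed, 5.83% rising and 6.85% falling. The log2 change per doubling of the day was 1.71 ± 0.18 for tubb6.L (adjusted p = 0.00284, edgeR), 1.00 ± 0.13 for tuba3c.S (adjusted p = 0.00369, edgeR), 0.72 ± 0.15 for tubb3.S (adjusted p = 0.0135, edgeR), 0.70 ± 0.14 for tuba1b.S (adjusted p = 0.0146, edgeR) and 0.57 ± 0.14 for tubb2b.S (adjusted p = 0.0244, edgeR). It was 0.40 ± 0.12 for tuba3c.L (adjusted p = 0.0525, edgeR) and -0.18 ± 0.11 for tubb4a.1 (adjusted p = 0.366, edgeR). Without day 11 only tubb6.L and tuba3c.S passed, and tubb3.S, tuba1b.S and tubb2b.S had adjusted p = 0.183, 0.157 and 0.299. Without day 1 the slope of tubb4a.1 was 0.07.

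A crush effect common to the 4 days was not found for any of the 7 with edgeR, which called 0.0385% of all 26005 models. In this fit, change of the eye difference between days counts as error. The estimates of smallest p were 3.51 ± 1.09 for tubb6.L (adjusted p = 0.223, edgeR), 1.58 ± 0.60 for tuba3c.S (adjusted p = 0.225, edgeR) and -0.67 ± 0.28 for tubb4a.1 (adjusted p = 0.238, edgeR). At an unadjusted p under 0.05 it was 3 of the 7, beside 5399 of the 26005 models. DESeq2 called 2, tubb6.L (adjusted p = 0.000299) and tuba3c.S (adjusted p = 0.0300), where it called 3079 of the 26005 models. With limma-voom it was 0 of the 7 and 12 of all models. Without day 1, edgeR called the same pair at log2 4.55 for tubb6.L (adjusted p = 0.0280) and 2.16 for tuba3c.S (adjusted p = 0.0485), where it called 2678 of 25761 models.

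Marker sums of other cells left the uninjured range at some days. Their part in these results was not tested. Models of Mueller glia and astrocytes (20 measured) summed to 290, 253, 372 and 679 CPM in the crushed eye at days 1, 3, 7 and 11, against 240 to 314 CPM in uninjured TRAP libraries. The vim models held 426 CPM of the day 11 sum. A sum without vim, which was not planned, was 164 and 252 CPM at days 7 and 11, against 223 to 293 CPM. The names gfap, glul and s100b had no matching symbol. Of 15 tested at day 11, 6 were higher and 3 lower, beside 21.4% and 23.6% of all models. Dividing-cell models (35) summed to 42.2, 44.7, 61.6 and 70.2 CPM in the crushed eye, against 35.6 to 45.2 CPM in uninjured libraries, with both birc5.1 models at 0 in every TRAP library. Of 22 tested at day 11, 3 were higher and 1 lower, beside 21.4% and 23.6% of all models. Endothelial and blood cell models (18) summed to 69.1, 95.4, 111 and 58.5 CPM in the crushed eye, against 42.3 to 59.1 CPM, above that range at day 1 already and inside it at day 11. Leukocyte models (7) summed to 4.24 to 7.23 CPM in the crushed eye, against 5.14 to 8.33 CPM in the uninjured libraries. Only 3 of them had enough reads to be tested after crush. The microglia and leukocyte names csf1r, aif1, cd68, itgam, c1qa, c1qb, c1qc, coro1a, cd74 and tyrobp had no matching symbol, so this sum says little about these cells. Of the other lists, photoreceptor (25 models), bipolar (12), amacrine and horizontal (19), oligodendrocyte and Schwann cell (10) and pigment epithelium (9) models each had lower sums in the crushed eye at days 7 and 11 than in any uninjured library. Single models of 2 of these lists went both ways. At day 11, 2 were higher and 2 lower of 6 oligodendrocyte and Schwann cell models tested, and 1 higher and 3 lower of 18 amacrine and horizontal models (21.4% and 23.6% of all models). The largest oligodendrocyte and Schwann cell model was mpz.L. The models olig2.L, gad1.2.S, vim.2.S and dct.S were at 0 in every TRAP library.

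Set against total retina, the 7 uninjured TRAP libraries were enriched in 6 of the 7 isotypes, where 42% of all 30183 models tested passed and 23.3% were higher in TRAP RNA. The isotype tubb4a.1 had 3079, 3292 and 3671 TPM (lowest, median, highest) in uninjured TRAP RNA and 651 TPM in total retina RNA. The log2 fold of TRAP over total retina was 3.13 ± 0.12 for tuba1b.S (adjusted p = 8.17e-17, edgeR), 2.91 ± 0.10 for tubb2b.S (adjusted p = 2.65e-17, edgeR), 2.91 ± 0.15 for tubb3.S (adjusted p = 4.48e-13, edgeR) and 2.59 ± 0.09 for tubb4a.1 (adjusted p = 2.72e-17, edgeR). It was 1.94 ± 0.13 for tuba3c.L (adjusted p = 9.21e-12, edgeR) and 0.84 ± 0.18 for tuba3c.S (adjusted p = 0.000444, edgeR), for which TRAP RNA had 45.8 to 67.6 TPM and total retina RNA 36.6 TPM. For tubb6.L, with 1.30 TPM in total retina RNA, it was 0.28 ± 0.90 (adjusted p = 0.844, edgeR). The pair that was least enriched in uninjured TRAP RNA, tubb6.L and tuba3c.S, was also the pair with the highest crush folds at day 11, and as the 2 comparisons share the uninjured libraries this is a description of values side by side.

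The order of the levels changed with the crush. In the 7 uninjured libraries it ran from tubb4a.1 through tubb2b.S, tuba1b.S, tubb3.S, tuba3c.L and tuba3c.S to tubb6.L. Only the ranges of tubb2b.S and tuba1b.S overlapped among neighbours, and tubb2b.S was the higher of this pair in each of the 7. In the crushed eye at day 11 the order was tuba1b.S, tubb2b.S, tubb3.S, tubb4a.1, tuba3c.L, tuba3c.S and tubb6.L. The spread among uninjured libraries was small, with a coefficient of variation of 5.46% for tubb4a.1 to 13.1% for tuba3c.S, apart from 43.3% for tubb6.L with its few counts.

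Shares of the summed TPM of the 7 show the same shift within each library. The share of tubb4a.1 was 35.9%, 20.98%, 10.4% and 7.56% in the crushed eye at days 1, 3, 7 and 11, against 32.4%, 35.8% and 37.0% (lowest, median, highest) in the uninjured libraries. That of tuba1b.S was 25.3%, 30.8%, 40.9% and 42.5% in the crushed eye, against 24.0%, 25.1% and 25.9%. For both, the day 1 crush share lay within the uninjured range and the other 3 outside it. The share of tubb3.S was 6.59%, 9.50%, 10.5% and 12.3% in the crushed eye, against 6.00%, 6.30% and 7.18%. That of tubb2b.S was 28.1%, 32.8%, 32.2% and 32.4% in the crushed eye, against 26.6%, 28.4% and 29.9%, so that it stayed near one level from day 3 on while its TPM went up. The share of tuba3c.S was 0.514%, 1.34%, 1.91% and 1.83% in the crushed eye, against 0.507%, 0.589% and 0.682%. That of tubb6.L was 0.0225%, 0.107%, 0.447% and 0.363% in the crushed eye, against 0.00722%, 0.0163% and 0.0204%. The share of tuba3c.L was 3.64%, 4.56%, 3.59% and 3.13% in the crushed eye, against 3.48%, 4.01% and 4.19% in the uninjured libraries, on both sides of that range.

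A two-sided exact permutation test of the 4 crush against the 7 uninjured libraries gave p = 0.00606 for the share of tubb6.L, the smallest that 330 splits allow. It gave p = 0.0182 for tubb3.S, 0.0242 for tuba1b.S, 0.0303 for tubb4a.1, 0.0364 for tubb2b.S, 0.0424 for tuba3c.S and 0.473 for tuba3c.L by exact permutation. These 7 shares sum to 100% and are not independent, and the p-values are not adjusted. The test treats all libraries as exchangeable, although 4 of the 7 uninjured ones are the other eyes of the crushed frogs. The sham eyes share frogs too. The 4 crush libraries are different days and spread more widely, with an SD of 12.8 against 1.64 percentage points for tubb4a.1. The same limits hold for the 4 against 7 tests of ratios and sums below. Without any 1 day the share of tubb6.L kept its call. The shares of tuba1b.S, tubb4a.1, tubb2b.S and tuba3c.S lost theirs without day 3, 7 or 11 (exact permutation p = 0.0714 to 0.143) and that of tubb3.S without day 11 (p = 0.0714). Across the 4 pairs of eyes, the shares of tubb6.L, tubb3.S, tuba1b.S and tuba3c.S were higher in the crushed than the contralateral eye at 4 of 4 days and that of tubb4a.1 lower at 4 of 4. An exact sign permutation over 4 pairs cannot go below p = 0.125, which each of these 5 shares reached.

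**Figure D3:**
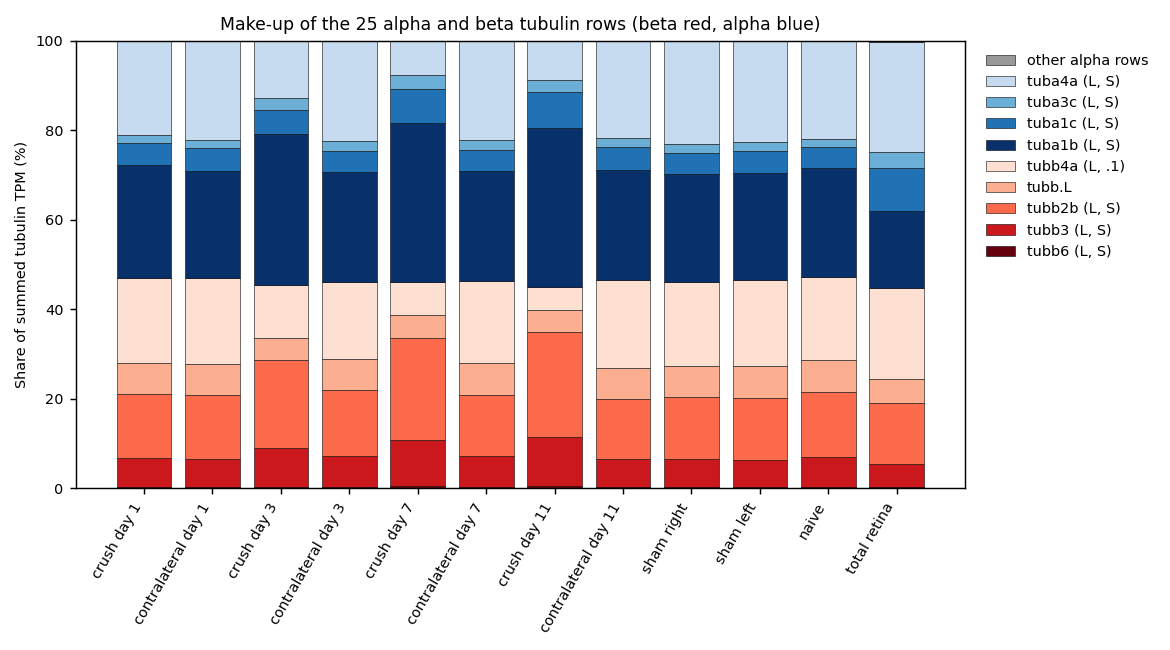
Share of the summed TPM of all 25 alpha and beta tubulin models (vertical axis, %) in each of 12 libraries, with beta tubulins in red and alpha tubulins in blue and the homeologs of a gene summed. The crushed eye at days 3, 7 and 11 shows narrower tubb4a and tuba4a segments and wider tubb2b, tubb3 and tuba1b segments than the uninjured libraries, while the border between red and blue stays near one height.

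The shift spanned both subunit classes when all 25 models were included. In the crushed eye at day 11 the tuba4a pair made up 8.80% of summed tubulin TPM, against 21.6% in the contralateral eye. The tubb4a pair made up 5.20%, against 19.8%. The tuba1b pair made up 35.4%, against 24.6% in the contralateral eye, the tubb2b pair 23.4%, against 13.4%, and the tubb3 pair 10.9%, against 6.27%.

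Alpha and beta tubulin are needed in equal numbers for the heterodimer. Over all 25 models, the log2 ratio of summed alpha to summed beta TPM was 0.17, 0.26, 0.23 and 0.29 in the crushed eye at days 1, 3, 7 and 11, against 0.16 to 0.23 in the uninjured libraries. The crush mean was 0.0384 higher (exact permutation p = 0.133, two-sided, 4 against 7). It was 0.0556 higher without day 1 (exact permutation p = 0.0476) and 0.0863 higher in counts not divided by length (exact permutation p = 0.0364). Among the 7 isotypes alone the ratio was -1.26, -0.79, -0.21 and -0.15 in the crushed eye, against -1.32 to -1.18 in the uninjured libraries. The 7 contain the falling tubb4a.1 but leave out tuba4a.L and tuba4a.S, so this ratio describes the choice of genes as well as the cells.

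Summed over the 25 models, tubulin was 18932, 16871, 23389 and 35641 TPM in the crushed eye at days 1, 3, 7 and 11, against 19642, 21174 and 22527 TPM (lowest, median, highest) in the uninjured libraries. The crushed eye was below all uninjured libraries at days 1 and 3 and above them at days 7 and 11. The means over all 4 days did not pass (exact permutation p = 0.606, 4 against 7). For the 7 isotypes the sum was 8439, 7977, 13098 and 19238 TPM in the crushed eye, against 8591 to 9927 TPM in the uninjured libraries. They took 0.904%, 0.823%, 1.49% and 2.26% of all counts in the crushed eye, against 0.945% to 1.08% in the uninjured TRAP libraries and 0.169% in total retina RNA.

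The ratio of homeologous copies was compared in 5 pairs, a comparison added after the values had been seen. Exact sign permutation over the 4 pairs of eyes gave p = 0.125, the smallest it allows, for each ratio other than tuba1b (p = 0.500). The tubb6 pair moved furthest, with tubb6.L at 0.0528, 0.316, 0.843 and 0.760 times the TPM of tubb6.S in the crushed eye at days 1, 3, 7 and 11, against 0.0140 to 0.0475 times in the 7 uninjured libraries (exact permutation p = 0.00606, two-sided). Its partner tubb6.S had 36.0, 27.0, 69.4 and 92.0 TPM in the crushed eye, against 36.4 to 49.6 TPM in the uninjured libraries. The tubb2b pair moved toward the .L copy. Its .S over .L ratio was 7.58, 3.82, 3.78 and 2.94 in the crushed eye, against 7.68 to 9.12 in the uninjured libraries (exact permutation p = 0.00606). The partner tubb2b.L had 313, 685, 1118 and 2123 TPM in the crushed eye, against 279 to 354 TPM in the uninjured libraries.

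For tubb3 the .S over .L ratio was 0.814, 1.05, 1.39 and 1.53 in the crushed eye, against 0.761 to 0.840 in the uninjured libraries (exact permutation p = 0.0182, and 0.0714 without day 11). For tuba3c it was 0.141, 0.293, 0.533 and 0.584, against 0.135 to 0.170 (exact permutation p = 0.0424, and 0.143 without day 3, 7 or 11). For tuba1b it was 0.810, 0.760, 1.80 and 1.84 in the crushed eye, against 0.791 to 0.878 in the uninjured libraries (exact permutation p = 0.206). Thus tubb3.S and tuba1b.S, the less abundant copy in every uninjured library, were the more abundant copy in the crushed eye at days 7 and 11. These p-values are unadjusted. As the 5 pairs were compared after the values had been seen, the p-values describe these ratios and are no independent test of them. That of tuba3c did not stay under 0.05 with Benjamini-Hochberg adjustment over the 5 ratios. Pairs were formed from the gene symbols as deposited. In the RefSeq gene table tuba3c.S is a synonym of tuba5.S. The symbol tubb2b.L is found there, but is also listed as a synonym of tubb2b.S. The models tuba3c.L, tubb3.S, tubb4a.1, tuba4a.L and tuba4a.S are not found by symbol. Whether the models paired by name are true homeologs was not tested, for tuba3c, tubb2b, and tubb4a.L with tubb4a.1 in particular. The sequences of the copies were not compared. Expected counts were whole numbers, within 0.001, in 3 of 12 libraries for tubb6.L, 1 for tuba1b.S and 0 for the other 5 isotypes. Some reads were thus divided among models. How many were is not known, and the split between copies is uncertain.

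**Figure D4:**
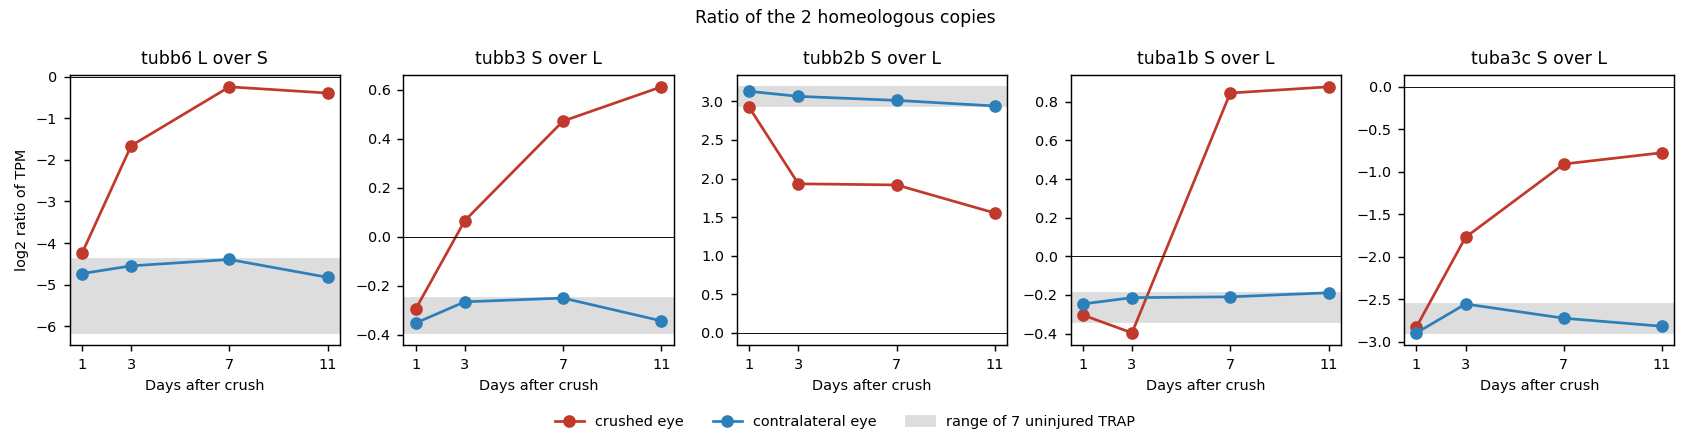
Log2 ratio of TPM of the 2 homeologous copies of 5 tubulin genes (vertical axis) by days after crush (horizontal axis), in the crushed eye (red) and the contralateral eye (blue), with the range of the 7 uninjured TRAP libraries in grey. The crushed eye lies above the grey band for tubb6 at every day, for tubb3 and tuba3c from day 3 and for tuba1b at days 7 and 11, and below it for tubb2b at every day.

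Of the other 18 alpha and beta tubulin models, 12 had enough reads to be tested after crush, and the rest were near 0. At day 11, 7 of the 12 were higher and 2 lower than in the uninjured libraries, beside 21.4% and 23.6% of all models, so that the lower calls were no more frequent than over all models. The largest gain was that of tubb2b.L, with a log2 fold of 3.29 ± 0.08 (adjusted p = 3.29e-17, edgeR). Next came tuba1c.S, which had 423, 399, 923 and 1488 TPM in the crushed eye at days 1, 3, 7 and 11, against 393 to 515 TPM in the uninjured libraries, and a log2 fold of 2.27 ± 0.08 at day 11 (adjusted p = 8.17e-15, edgeR). The most abundant of the 18 by CPM, tuba1b.L, had a log2 fold of 1.21 ± 0.07 at day 11 (adjusted p = 6.40e-12, edgeR).

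Both tuba4a copies, tuba4b.L and tubb4a.L fell at days 3 and 7, and tuba4a.L and tuba4b.L also at day 11. With 1165, 566, 336 and 623 TPM in the crushed eye at days 1, 3, 7 and 11, against 1291 to 1491 TPM in the uninjured libraries, tuba4a.L was below their range at every day. Its log2 fold was -1.25 ± 0.09 at day 3, -1.62 ± 0.09 at day 7 and -0.60 ± 0.08 at day 11 (adjusted p = 2.33e-09, 1.09e-11 and 6.21e-06, edgeR). The homeolog tuba4a.S had 2784, 1573, 1461 and 2514 TPM in the crushed eye, against 3181 to 3543 TPM. Its log2 fold was -1.05 ± 0.08 at day 3 and -0.78 ± 0.08 at day 7 (adjusted p = 8.30e-09 and 8.66e-08, edgeR), and at day 11 it was 0.14 ± 0.07 (adjusted p = 0.151, edgeR), or -0.18 with scaling by total counts. The .L copy of tubb4a had 574, 346, 338 and 398 TPM in the crushed eye, against 590 to 748 TPM in the uninjured libraries, and a log2 fold of -0.88 ± 0.11 at day 3, -0.54 ± 0.10 at day 7 and -0.17 ± 0.10 at day 11 (adjusted p = 3.20e-06, 0.000219 and 0.182, edgeR), the last being -0.48 with scaling by total counts (adjusted p = 0.000952, edgeR). The rare tuba4b.L had 20.5, 13.4, 3.05 and 2.62 TPM in the crushed eye, against 21.8 to 32.7 TPM. At day 3, 2 of the 12 were higher (tubb2b.L and tuba1b.L) and 6 lower (11.9% and 11.2% of all models), the 4 just named with tubb.L and tubb6.S, and at day 7, 6 were higher and the same 4 lower (21.6% and 21.4% of all models), names that were added after the values were seen. Deposited TPM are not TMM-scaled, and for tuba4a.S at day 11 the scales differ in direction, with a TPM below every uninjured library and a TMM-scaled fold above 0. In the fit over days, 3 of the 12 rose (tubb2b.L, tuba1c.S and tuba1c.L) and tuba4b.L fell (5.83% and 6.85% of all models), but only 1 rose without day 11 and 2 without day 7 or with scaling by total counts, against 6 without day 1 or with limma-voom.

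Genes that act on tubulin were described from lists. Of 27 models for tubulin folding (the chaperonin TRiC, prefoldin and the tubulin cofactors), 12 rose with day relative to the contralateral eye and 0 fell, where 5.83% of all models rose and 6.85% fell. Their median slope was 0.48, beside -0.03 for all models, -0.07 was the slope of the cofactor tbcc.L (adjusted p = 0.823, edgeR), and -0.23 that of the cofactor tbcb.S (adjusted p = 0.216, edgeR). All 10 TRiC models rose, with slopes of 0.51 to 0.80, and 2 of the other 17, a split made after the values were seen and not tested. The level of cct4.S was 180, 365, 920 and 971 CPM in the crushed eye at days 1, 3, 7 and 11, against 187 to 225 CPM in the uninjured libraries, with a slope of 0.77 ± 0.11 (adjusted p = 0.00451, edgeR). That of cct2.L was 106, 197, 651 and 608 CPM, against 117 to 130 CPM, with a slope of 0.80 ± 0.12 (adjusted p = 0.00575, edgeR). The most abundant, tcp1.L, had 192, 313, 973 and 1028 CPM in the crushed eye, against 197 to 217 CPM. At day 11, 17 of the 27 were higher and 1 lower (21.4% and 23.6% of all models). The count that rose with day was 4 without day 11 and 5 without day 7.

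The enzymes that modify tubulin came next. Of their 14 models, 3 rose with day and 0 fell in edgeR (5.83% and 6.85% of all models). At an unadjusted p under 0.05 were 6, beside 7145 of all 26005 models. DESeq2 and limma-voom called 4 and 3, beside 4539 and 4672 of all models. One of the 3 was the alpha tubulin acetyltransferase atat1.L, with 37.9, 48.1, 74.5 and 79.1 CPM in the crushed eye, against 33.6 to 39.9 CPM in the uninjured libraries, and a slope of 0.40 ± 0.11 (adjusted p = 0.0397, edgeR). The glutamylase ttll4.L had a slope of 0.59 ± 0.17 (adjusted p = 0.0466, edgeR). The third was the deglutamylase agbl3.S (slope 1.19), under 5 CPM and named after its value was seen. Without day 7 or without day 11 none of the 14 passed, and without day 1 or with scaling by total counts 1 did. The median day 11 log2 fold of the 14 was 0.88, beside -0.12 over all models. For the deglutamylase agbl5.S the slope was -0.37 (adjusted p = 0.176, edgeR) and the day 11 log2 fold -1.95 (adjusted p = 4.18e-05, edgeR). The carboxypeptidases vash2.S and vash1.L, which remove the last tyrosine of alpha tubulin, had slopes of -0.20 and 0.08 (adjusted p = 0.354 and 0.721, edgeR).

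Among 20 models of axonal and dendritic microtubule-associated proteins, 0 rose with day and 3 fell in edgeR (5.83% and 6.85% of all models). The counts of calls were the same in DESeq2 and limma-voom. At an unadjusted p under 0.05, edgeR had 5 of 20, beside 7145 of all 26005 models. The 3 were dpysl5.S (slope -0.43, adjusted p = 0.0328, edgeR), named after its value was seen, and both copies of map6, which codes for a microtubule-stabilising protein. The .S copy had 383, 303, 145 and 148 CPM in the crushed eye, against 383 to 456 CPM in the uninjured libraries, and a slope of -0.48 ± 0.11 (adjusted p = 0.0201, edgeR), and map6.L had a slope of -0.47 ± 0.12 (adjusted p = 0.0266, edgeR). None of the 20 passed without day 7 or without day 11, and 2 rose and 2 fell without day 1. Their median day 11 log2 fold was -0.04, beside -0.12 over all models. The microtubule-associated protein map1b.L, known from growing axons, had 557, 693, 809 and 1038 CPM in the crushed eye, against 469 to 608 CPM, with a slope of 0.24 (adjusted p = 0.177, edgeR) and a day 11 log2 fold of 0.90 (adjusted p = 2.57e-07, edgeR). The growth cone protein dpysl3.L had a slope of 0.33 (adjusted p = 0.171, edgeR).

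The 3 remaining lists held no model that passed in the fit over days. Gamma tubulin and its ring complex start microtubules. Of 13 models for them and for delta and epsilon tubulin, 2 were higher and 6 lower at day 11 (21.4% and 23.6% of all models). Slopes were -0.27 for tubgcp3.L, -0.26 for mzt2b.L, 0.20 for tubgcp4.S and 0.10 for tubgcp6.L (adjusted p = 0.177, 0.185, 0.414 and 0.622, edgeR). The 2 higher were tubgcp4.S and tubgcp6.L, at a day 11 log2 fold of 0.42 and 0.39 (adjusted p = 0.0479 and 0.0424, edgeR). Both calls were lost with total counts (0.11 and 0.08, adjusted p = 0.644 and 0.725, edgeR), with no filter, and without the day 1 contralateral library. The call of tubgcp4.S was also lost without the naive or the day 7 or day 11 contralateral library, and that of tubgcp6.L without the sham right, both sham or the day 3 contralateral libraries. The stathmins, which bind free tubulin, had 2 models, with slopes of 0.28 for stmn1.L and 0.10 for stmn1.S (adjusted p = 0.233 and 0.670, edgeR). Both were higher at day 11, where 21.4% of all models were. The log2 fold was 0.90 for stmn1.L (adjusted p = 1.16e-07, edgeR) and 0.23 for stmn1.S (adjusted p = 0.0251, edgeR), the second being -0.09 with scaling by total counts. Of 10 models for plus-end, severing and minus-end proteins, 4 were higher and 2 lower at day 11 (21.4% and 23.6% of all models), or 2 higher and 4 lower with scaling by total counts. The slopes were 0.35 for apc.L, 0.29 for apc.S, 0.51 for clip4.L, -0.22 for clip4.S and -0.20 for clip2.S (adjusted p = 0.0655, 0.132, 0.0526, 0.438 and 0.280, edgeR). At an unadjusted p under 0.05, edgeR had 1 of the 13, 0 of the 2 and 3 of the 10, beside 7145 of all 26005 models. DESeq2 and limma-voom each called 0, 0 and 2 of them at an adjusted p of 0.05, beside 4539 and 4672 of all models. Without day 1, edgeR called 1 model in each of the 3 lists, all rising.

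**Figure D5:**
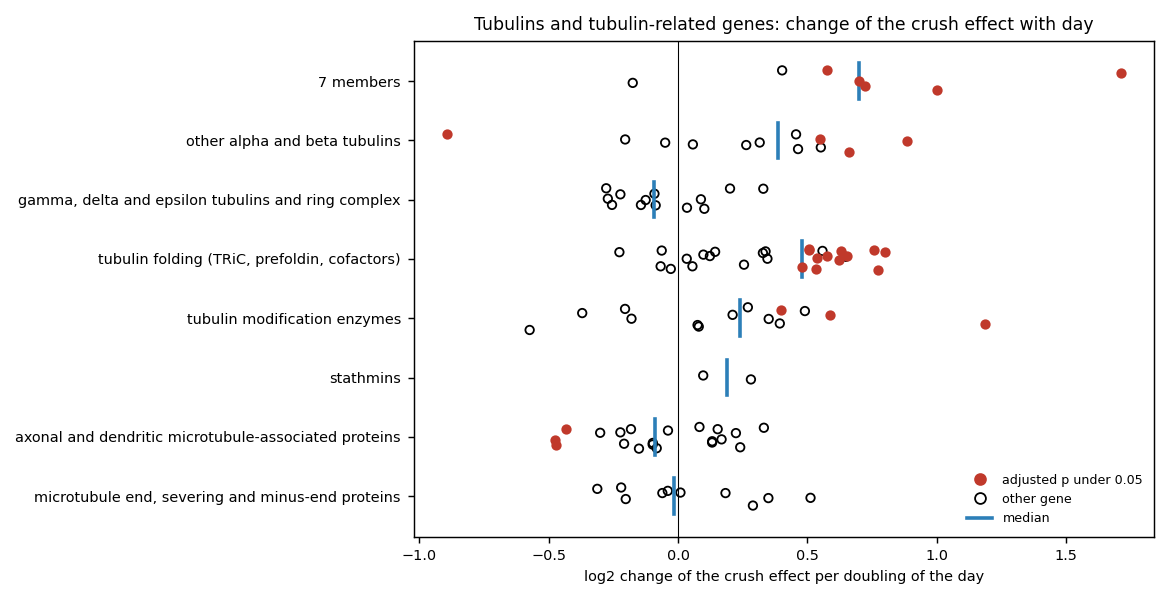
Log2 change of the crush effect per doubling of the day (horizontal axis) from the edgeR fit, 1 point a gene model, for the 7 isotypes and 7 lists of tubulin-related genes (down the page). Filled red points have an adjusted p under 0.05 over all models and blue bars are list medians, with the folding list at 0.48 and the microtubule-associated proteins at -0.09.

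Likeness across the 11 TRAP libraries was taken as Pearson's r of log2 CPM against 9270 models with a symbol and a mean of at least 10 CPM. The libraries share the crushed days as their main source of variation, so that r is high for many genes and is given as a description. The nearest models to tubb3.S were tuba1b.S (r = 0.993) and tubb2b.S (r = 0.989). Those nearest to tuba1b.S were tubb2b.S (r = 0.994) and tubb3.S (r = 0.993), and to tubb2b.S they were tuba1b.S (r = 0.994) and tubb3.L (r = 0.991). The 2 nearest to tubb6.L were nmt2-like.S (r = 0.993) and eif5b-like.S (r = 0.990), and to tuba3c.S LOC101732517.L (r = 0.995) and casc3.S (r = 0.993). For tuba3c.L they were stambpl1.L (r = 0.984) and pgam1.L (r = 0.983). For tubb4a.1 they were got1.S (r = 0.991), which codes for an aspartate aminotransferase, and trappc1.1 (r = 0.989). Within the 7, r among the 6 rising isotypes was 0.885 to 0.994, and r of tubb4a.1 with them was -0.83 to -0.57.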

How the data were processed

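RNA-seq libraries of 12 conditions were analysed, 11 of TRAP RNA and 1 of total retina RNA. The submitters' processing notes name RSEM 1.2.21, Trimmomatic 0.33 and Bowtie2 2.2.5. The genome build is not given in the sources used here. For each of 45099 gene models, the tables deposited by the authors give a TPM value, an expected count and a model length, per the file headers. Rounding the deposited expected counts changed library totals by at most 0.000296%. Deposited TPM gave levels, shares and ratios, with no pseudocount.

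The main test on counts was edgeR 4.0.16 in R 4.3.3 (quasi-likelihood, robust, scaled by TMM, low counts removed by filterByExpr), with Benjamini-Hochberg adjustment over all models and a threshold of 0.05. The fits were crush against contralateral eye over 4 days with day as a block, the interaction of eye with log2 day, each crush library against the 7 uninjured TRAP libraries, and these 7 against total retina RNA. All but the fit against total retina RNA were also run on simulated counts drawn with the dispersions of the 7 uninjured libraries. The fit of single crush libraries was read there at day 7 only. Such counts cannot test whether a lone crush library varies like the uninjured ones. DESeq2 1.42.0, limma 3.58.1 (voom), other scalings and filters, no block, and each library or day left out were alternatives. Both eyes of a day came from the same frogs, per the labels' protocols, which pairs them; deviations from the group means correlated by 0.0833, 0.0594, 0.0462 and 0.0429 at days 1, 3, 7 and 11 over 26005 models. Shares and ratios were tested by exact permutation with SciPy 1.17.1. Counting error of a share of counts was at most 0.242 percentage points in TRAP libraries and 0.483 in total retina RNA (Wilson 95% half-width), which covers counting error only.

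The genes named were the 7 isotypes, the 2 models nearest to each by Pearson's r of log2 CPM (prior count 2), and, from each list of tubulin-related genes, the 2 of smallest p in each direction for the change with day and the most abundant, at 5 CPM or more. Lists covered other alpha and beta tubulins, gamma tubulin and ring complex, folding, modification, stathmins, microtubule-associated proteins, and end, severing and minus-end proteins, and 10 cell type lists. List genes with no matching symbol are missing from them. The isotypes and the lists were chosen with earlier results of these data known.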

Additional observations from a re-analysis of the deposited data

Results flagged for a closer look

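In 5 isotypes the crush effect differed between days by a test of the interaction of eye and log2 day. The log2 change per doubling of the day was 1.71 for tubb6.L, 1.00 for tuba3c.S, 0.72 for tubb3.S, 0.70 for tuba1b.S and 0.57 for tubb2b.S, all rising. The days are single pools of 3 replicates, and depth differed between them, with 49796016, 22615151, 63299998 and 46385324 counts in the crushed eye and 55517533, 34978173, 16820571 and 43576308 counts in the contralateral eye at days 1, 3, 7 and 11. The part of depth in these slopes was not tested.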

How the results depend on the processing

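Over the alternatives tried, the calls and directions of the 7 isotypes were the same in 84 of 84 cases at days 1, 7 and 11 each, in 70 of 70 for TRAP against total retina, in 66 of 84 at day 3, in 59 of 70 for the change with day and in 66 of 70 for the effect over 4 days. For single days and for total retina, the alternatives were scalings, no filter and uninjured libraries left out, all in edgeR. The lone crush or total retina library was the same in each, so these tallies cannot show how far a call depends on it. The cases at day 1 repeat non-calls. The number of isotypes called over 4 days, 0 in edgeR, was 2 with DESeq2 and 0 to 2 with a day left out, and for the change with day, 5 in edgeR, it was 2 to 6. Without the replicate block these were 0 and 6. DESeq2 did not call the slope of tubb2b.S (adjusted p = 0.369), and the slope of tuba3c.L passed with DESeq2 (adjusted p = 0.0142), limma-voom, no filter, no block, or without day 1 or 3. Near 0 at day 3, tuba3c.L (0.02) was -0.032 with total counts, -0.015 against the 4 contralateral libraries alone and -0.014 to 0.046 with a library left out, and tubb2b.S (0.00) was -0.045 with total counts, -0.0011 with no filter, -0.0024 against the 4 contralateral libraries, -0.0036 without the sham libraries and -0.0085 to 0.028 with a library left out. The slope of tubb4a.1 was -0.27 to 0.067 with a day left out. The log2 difference of summed TPM of 25 models, 0.10, was -0.10 to 0.26, the lowest without day 11, and the alpha over beta difference, 0.0384, was 0.0206 to 0.0556 with a day left out and 0.0863 in counts. The share of tuba3c.L, -0.189 percentage points in crush against uninjured libraries, was 0.137 when taken of 25 models. The causes were not tested.

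Over all models, the effect over 4 days was called for 10 in edgeR, 3079 with DESeq2, 12 with limma-voom, 25 with no filter, 6 with total counts, 0 with no block, and 2678, 4, 0 and 2 without day 1, 3, 7 and 11. The change with day was called for 3296, and for 1250 to 5198 with a day left out, the lowest without day 11. With total counts it was called as 881 rising and 2596 falling, against 1515 and 1781, and the median of all models moved by -0.11. Day 1 gave 7 calls, and 2 to 13 with a library left out, and 14 with no filter or without the sham libraries. With 1 pooled library per condition, the spread between frogs was not measured.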
